A study of Homo sapiens with 8 samples.

Results

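The DDX and DHX genes encode the DEAD-box and DEAH-box proteins, families of ATP-driven enzymes most of which unwind RNA or remodel RNA-protein complexes. Protein-coding genes of the GENCODE annotation on GRCh37 whose symbol is DDX or DHX followed by a digit were taken, which gave 54 genes of 20136, 38 DDX and 16 DHX genes. The other 20082 protein-coding genes served for comparison. The series mapped FLI1, an ETS family transcription factor, by chromatin immunoprecipitation and sequencing (ChIP-Seq) with a rabbit polyclonal antibody in 2 established lines, OCI-Ly1 and VAL, derived from germinal centre B cell (GCB) diffuse large B cell lymphoma. The labels give no treatment and no genetic change for either line, name 2 FLI1 libraries and 2 input DNA libraries for each line, and do not say whether replicates came from separate cultures. The input libraries were not analysed here. A gene was called bound in a library where the best listed peak centred within 3 kb of any of its transcription start sites (TSS) had a -log10 q of at least 3.

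DEAD-box and DEAH-box helicases take part in nearly every step in the life of an RNA. In the nucleolus they help to fold and cleave ribosomal RNA precursors, in the spliceosome they drive the rearrangements between its successive stages, and at the nuclear pore and on ribosomes they strip proteins from messenger RNA or open its leader. Several are abundant in every growing cell, and a few act in antiviral sensing, in the germ line or in mitochondria. ETS factors share a DNA-binding domain that recognises a GGAA core, often within CCGGAAG or CCGGAAA in promoters rich in CpG.

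The peak list of OCI-Ly1 replicate 1 held 37 intervals, 33 of them over 1 Mb, and was not used. OCI-Ly1 replicate 2, called the OCI-Ly1 library from here on, held 5354 peaks past the threshold. VAL replicate 1 held 973 such peaks and VAL replicate 2 held 6474. The weakest of these rested on 6, 8 and 6 reads at the summit, in that order. OCI-Ly1 therefore had 1 usable library, and the cell lines could not be compared against the spread between replicates. Peak lists carry no expression values, so the identity of the cells was not checked against marker genes. The q values ranked and filtered peaks within a library and are not amounts of FLI1 that can be compared between libraries.

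FLI1 peaks past the threshold lay at the promoters of 33 of the 54 helicase genes (61.1%) in at least 1 of the 3 libraries, against 27.4% of the other protein-coding genes. In the OCI-Ly1 library, 24 helicase genes (44.4%) were bound, against 18.9% of the others. In VAL replicate 2, 24 (44.4%) were also bound, against 20.8%. VAL replicate 1, with the shortest list, held 4 (7.41%), against 3.13%. A promoter peak in both cell lines was found at 17 helicase genes (31.5%), against 12.6% of the others. This count rests on VAL replicate 2: it was 4 without that library, against 2.8%, and 9 at a -log10 q of at least 5, against 7.56%. In all 3 libraries only DDX5 and DDX39B were bound (3.7%), against 2.73%, so that the last share lay near that of the other genes.

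**Figure D1:**
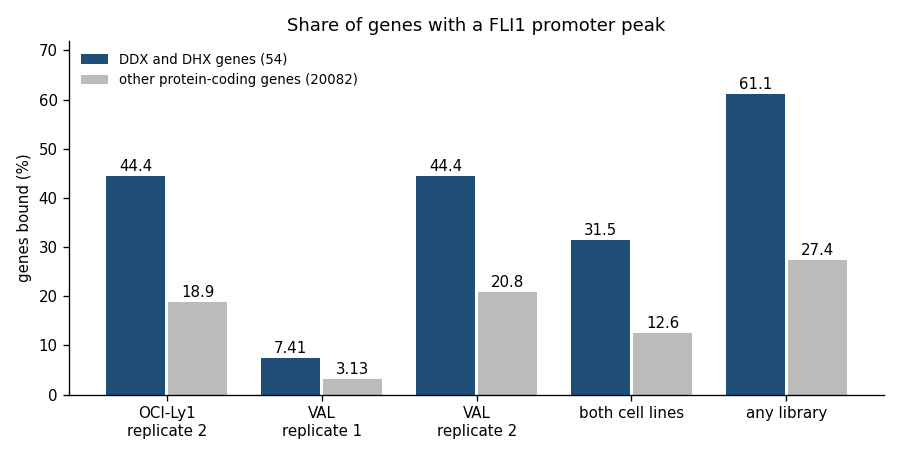
Percentage of genes called bound by FLI1 (y axis) in each library, in both cell lines and in any library (x axis), for the 54 DDX and DHX genes (dark bars) and the 20082 other protein-coding genes (grey bars). The dark bar is the taller in each pair, 61.1% against 27.4% for any library, and carries no error because each is a count over 1 set of genes.

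The medians over all genes, which do not use the threshold, also lay higher for the helicase genes. The median best -log10 q of the helicase genes was 2.43 in the OCI-Ly1 library, 0.334 in VAL replicate 1 and 2.7 in VAL replicate 2, counting a gene with no listed peak as 0. The medians of the other genes were 1.22, 0.183 and 1.63. Among bound genes alone the values were closer, with a median of 6.4 for the helicase genes and 6.2 for the others in the OCI-Ly1 library, and of 7.26 and 5.72 in VAL replicate 2. Of the 54 genes, 21 were bound in no library, 16 in 1, 15 in 2 and 2 in all 3.

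The sequences printed here are those of DDX5 and DDX39B, bound in all 3 libraries, of DDX21, and of 3 further genes bound in both lines, and each holds an ETS motif within 50 bp of a bound summit. DDX55, with higher values than DDX21 and DDX46, has no such motif and is not shown, and at DDX46 the summit of VAL replicate 2 had none within 50 bp. They are reference sequence of GRCh37, written 5′ to 3′ on the strand of the gene and centred on the motif, which stands in capitals. Where the motif lies on the other strand its reverse complement, CTTCCGG or TTTCCGG, is shown. The windows of DDX5, DDX39B, DDX19A and DDX19B overlap exon sequence annotated as untranslated, and those of DDX21 and DDX46 lie upstream of every annotated TSS of the gene. DDX19A, DDX19B and DDX46 were added to the set after their values were seen.
DDX5, chr17:62502861-62502889, minus strand: cgagcagcgcaCTTCCGGtgagctatttc
DDX39B first site, chr6:31509777-31509805, minus strand: gaagcctgcaaCCGGAAGtgaaggcagat
DDX39B second site, chr6:31509847-31509875, minus strand: ggaaggccctgTTTCCGGtcccttgcgcc
DDX19B, chr16:70333068-70333096, plus strand: gtggcgcgccgCTTCCGGtctgcagcctt
DDX19A, chr16:70380776-70380804, plus strand: gctcaccgccgCTTCCGGtccgcgtgagg
DDX21, chr10:70715855-70715883, plus strand: tcctgcttcccCCGGAAGtgccttgctac
DDX46, chr5:134094395-134094455, plus strand: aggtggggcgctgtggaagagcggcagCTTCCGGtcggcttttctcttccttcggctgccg

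DDX5, a helicase that acts in splicing and as a transcriptional coactivator, had the highest -log10 q of the family in all 3 libraries, 134 in the OCI-Ly1 library, 24.4 in VAL replicate 1 and 97.8 in VAL replicate 2. Among all listed peaks of these libraries its peak ranked 5, 27 and 15, in that order. The deposited fold was 55.1, 11.1 and 42.7. Reads at a summit were inferred from the fold and p-value of the peak, taking the fold as reads plus 1 over local background plus 1, a form worked out from the values themselves. They came to 71 (exact 95% Poisson interval 55.5 to 89.6), 36 (25.2 to 49.8) and 57 (43.2 to 73.9). These intervals cover counting error only. The summit fell on the same base in the OCI-Ly1 library and VAL replicate 1, and 10 bp away in VAL replicate 2, 9, 9 and 1 bp from the centre of the printed motif. It lay 17 to 27 bp upstream of an annotated TSS of DDX5, in a promoter shared with CEP95, which starts on the opposite strand. With the peak given only to the gene whose TSS was closest to its centre, DDX5 kept its call in the OCI-Ly1 library and VAL replicate 2 and lost it in VAL replicate 1.

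DDX39B, which acts in spliceosome assembly and in loading messenger RNA for export, followed with a -log10 q of 40.4 in the OCI-Ly1 library and of 24.3 and 34.2 in VAL replicates 1 and 2. The peaks rested on 33 (22.7 to 46.3), 36 (25.2 to 49.8) and 27 (17.8 to 39.3) reads. Their folds were 21.1, 11.0 and 19.4. The promoter holds 2 motifs, and the summit of the OCI-Ly1 library lay 2 bp from the centre of the first and that of VAL replicate 2 lay 3 bp from the centre of the second. The summit of VAL replicate 1 fell between them, 28 bp from one and 42 bp from the other. The small nucleolar RNA gene SNORD84 and the antisense gene DDX39B-AS1 also start within 3 kb of these peaks. The closest TSS to the peak centre belonged to one of them in both VAL libraries.

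**Figure D2:**
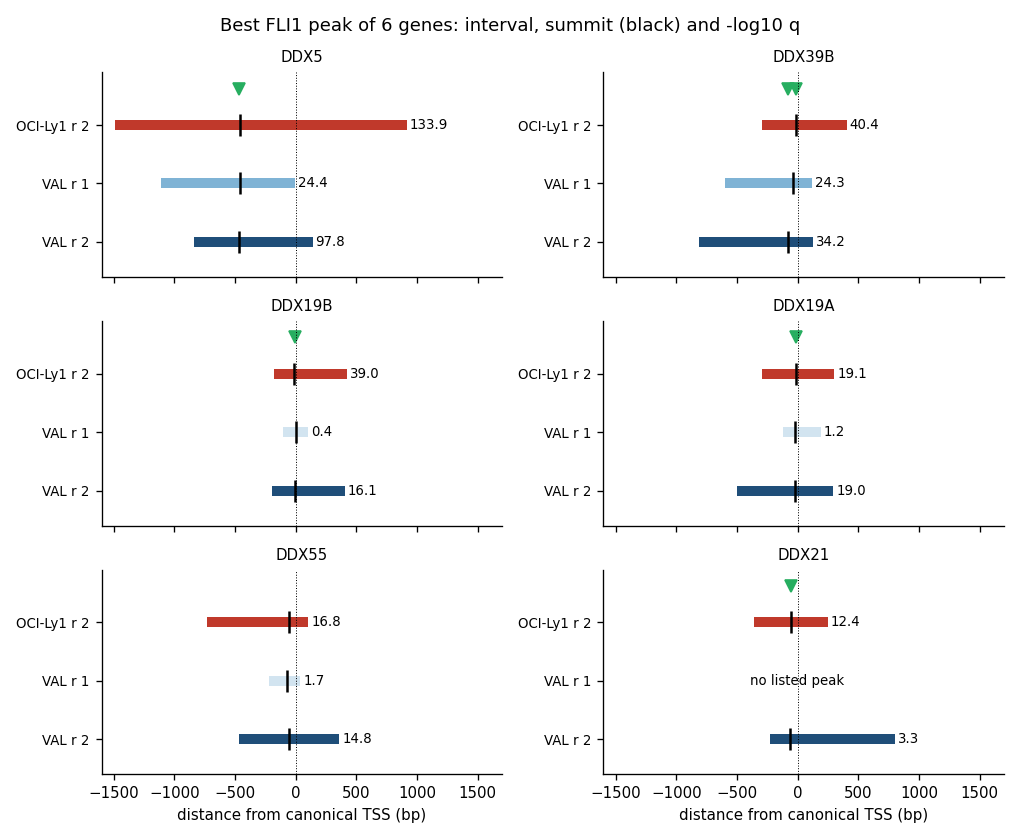
Best FLI1 peak within 3 kb of a TSS of 6 genes in each library, as its interval (coloured bar, pale where below the threshold), its summit (black tick) and its -log10 q (number), with ETS motifs within 50 bp of a bound summit as green triangles. The x axis is the distance from the canonical TSS in bp along the gene's strand, and the summits of the bound libraries stand within 69 bp of each other at each of the 6 genes.

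DDX19A and DDX19B, close paralogues of the helicase that releases messenger RNA at the nuclear pore, stand in tandem on chromosome 16 with canonical TSS 47717 bp apart. Both were bound in both cell lines at separate peaks. DDX19A lost its call in VAL replicate 2 with each peak given only to the closest TSS, and DDX19B lost both calls with only its outermost 5′ end searched. DDX19B reached 39.0 in the OCI-Ly1 library and 16.1 in VAL replicate 2, and DDX19A 19.1 and 19.0. In VAL replicate 1 their values were 0.382 and 1.24, below the threshold. Each promoter holds a CTTCCGGT site at its TSS, with the motif centre within 9 bp of the summit in both libraries. Over the printed 29 bases the genes are identical at 17 positions. A further protein-coding gene record without a symbol starts at the DDX19B promoter.

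DDX21, a nucleolar helicase of ribosomal RNA transcription and processing that the study singled out as a target, had a -log10 q of 12.4 in the OCI-Ly1 library and 3.27 in VAL replicate 2. The first peak rested on 15 reads (8.4 to 24.7) and the second on 6 (2.2 to 13.1). In VAL replicate 1 no peak was listed within 3 kb of any of its TSS. The summits lay 7 bp apart, 2 and 5 bp from the centre of the printed CCGGAAG and 20 and 27 bp upstream of the TSS, with no other gene starting within 3 kb. The VAL call was at the edge: it was lost at a -log10 q of at least 5 and among the 5000 highest peaks. The study's case for DDX21 does not rest on these lists alone. It also tested FLI1-bound promoters by real-time PCR in both lines, with primers for DDX21. It named DDX21 among transcripts positively regulated by FLI1. Its paralogue and neighbour DDX50, with canonical TSS 54855 bp apart, gave 3.35 in the OCI-Ly1 library, 0.382 in VAL replicate 1 and 2.7 in VAL replicate 2.

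Helicases of ribosome biogenesis, a list that includes DDX21 and DDX50, were bound most often in the OCI-Ly1 library. Of the 16 genes of this list, 10 were bound in the OCI-Ly1 library, 1 in VAL replicate 1 and 6 in VAL replicate 2, with 6 in both lines and 11 in any library. Of the other protein-coding genes, 18.9%, 3.13% and 20.8% were bound in these libraries, 12.6% in both lines and 27.4% in any library. DDX55, needed for the large ribosomal subunit, gave 16.8 in the OCI-Ly1 library and 14.8 in VAL replicate 2, with 1.72 in VAL replicate 1. Its bound summits lay 1 bp apart, with neither CCGGAAG nor CCGGAAA within 50 bp. DDX18, a nucleolar protein, gave 8.49 and 19.2 in the same pair of libraries and 2.08 in VAL replicate 1. DDX27, which acts on ribosomal RNA ends, gave 3.51, 8.2 and 1.53 in that order. DDX47, which acts in early processing, gave 3.86, 7.41 and 2.26. These 4 genes were thus past the threshold in both lines and below it in VAL replicate 1. DHX33, linked to ribosomal RNA synthesis, was bound at 6.47 in the OCI-Ly1 library and 5.37 in VAL replicate 1 and fell short at 2.7 in VAL replicate 2. Its summits were closer to the TSS of the divergent transcript DHX33-DT than to its own. DDX24, DDX49, DDX50 and DDX56 passed in the OCI-Ly1 library only and DDX54 in VAL replicate 2 only, while DDX10, DDX31, DDX51, DDX52 and DHX37 passed in none.

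Among 15 splicing helicases, 5 were bound in the OCI-Ly1 library, 3 in VAL replicate 1 and 8 in VAL replicate 2, with 5 in both lines and 9 in any library. The shares of other protein-coding genes were 18.9%, 3.13% and 20.8%, with 12.6% in both lines and 27.4% in any library. Besides DDX5 and DDX39B, DDX46, which readies the branch site for the U2 particle, gave 13.2 in the OCI-Ly1 library, 3.27 in VAL replicate 2 and 0.495 in VAL replicate 1. DHX8, which releases the spliced message, gave 10.3 in the OCI-Ly1 library, 3.08 in VAL replicate 1 and 2.7 in VAL replicate 2. DDX42, a partner of the U2 particle, gave 5.78 and 4.33 in the OCI-Ly1 library and VAL replicate 2, with summits 1 bp apart, and 1.4 in VAL replicate 1. DDX20, DDX23, DDX41 and DHX38 passed in VAL replicate 2 only. DDX17, DDX39A, DHX9, DHX15, DHX16 and DHX35 passed in no library.

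Of 9 genes of messenger RNA export, translation and decay, 5 were bound in the OCI-Ly1 library, 6 in VAL replicate 2 and none in VAL replicate 1, with 4 in both lines and 7 in any library. Beside these stand 18.9%, 20.8% and 3.13% of other protein-coding genes, with 12.6% in both lines and 27.4% in any library. DDX3X, which opens structured leaders for translation, gave 5.1 in the OCI-Ly1 library, 14.4 in VAL replicate 2 and 1.01 in VAL replicate 1. Its bound summits lay 420 bp apart, 1 bp from one TSS in the OCI-Ly1 library and 119 bp upstream of another in VAL replicate 2. The called intervals overlap, at chrX:41193263-41194548 and chrX:41193301-41194878 in that order, so only the summits stood apart. DHX36, which unwinds G-quadruplexes, gave 11.1 and 4.91, with 2.55 in VAL replicate 1. DDX1 and DHX34 passed in VAL replicate 2 only, and DDX6 and DHX29 passed in none. DDX3Y, on the Y chromosome, is counted among the 9 genes and its values are not given.

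The remaining lists were short, and counts this small say little beside the 27.4% of other protein-coding genes bound in any library. None of the 3 innate immune genes was bound: DHX58, an antiviral sensor of the RIG-I family, reached 2.4 at most, and DDX60 and DDX60L 0.952. Of 4 germ-line genes, DDX25 passed in the OCI-Ly1 library and DDX4 in VAL replicate 2, and DDX43 and DDX53 in none. Of the mitochondrial pair, DHX30 passed in the OCI-Ly1 library and DDX28 in none. Among 5 genes of other roles, DDX11 and DDX59 were bound in both lines, at 7.07 and 4.46 in the OCI-Ly1 library and at 13.4 and 15.9 in VAL replicate 2, with 0.183 and 1.5 in VAL replicate 1. DHX32 passed in VAL replicate 2 only. DDX11, a DNA helicase of sister chromatid cohesion, has near-identical duplicated copies elsewhere in the genome, and reads may have been placed between them, so its values are uncertain. The summits of DDX59 lay 222 bp apart.

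**Figure D3:**
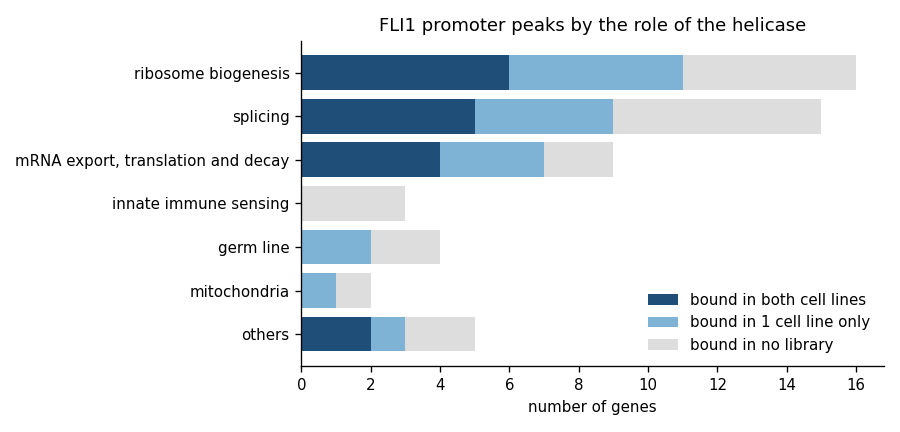
Number of DDX and DHX genes (x axis) in each role (y axis) that were bound by FLI1 in both cell lines, in 1 cell line only or in no library. Bound genes fill 11 of 16 in ribosome biogenesis, 9 of 15 in splicing and 7 of 9 in export, translation and decay, and none of 3 in innate immune sensing. Of other protein-coding genes 27.4% were bound in any library, and the shortest lists are too small to read against that share.

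By name, 20 of the 38 DDX genes and 4 of the 16 DHX genes were bound in the OCI-Ly1 library, and the same counts were found in VAL replicate 2, beside 18.9% and 20.8% of other protein-coding genes. In any library 26 DDX and 7 DHX genes were bound, beside 27.4%. The DHX counts in the OCI-Ly1 library and VAL replicate 2 thus lay near the share of other genes. In VAL replicate 1, 2 DDX and 2 DHX genes were bound, beside 3.13%. Of 22 RNA helicase genes with other symbols, 6 were bound in the OCI-Ly1 library, 6 in VAL replicate 2 and none in VAL replicate 1, with 8 in any library. Their shares were 27.3% in the OCI-Ly1 library and VAL replicate 2, beside 18.9% and 20.8% of other protein-coding genes, and 36.4% in any library, beside 27.4%. EIF4A1, the helicase of the translation initiation complex, gave 12.8 in the OCI-Ly1 library and 18.1 in VAL replicate 2, and SKIC2, of the Ski complex of RNA decay, 16.5 and 17.1. The difference between these helicases and the DDX and DHX genes was not tested.

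Paralogues did not always share a peak. DDX39A, a close paralogue of DDX39B that also acts in messenger RNA export, gave 1.61 in the OCI-Ly1 library, 0 in VAL replicate 1 and 2.27 in VAL replicate 2, where DDX39B gave 40.4, 24.3 and 34.2. DDX17, the paralogue of DDX5, gave 2.77, 0.146 and 2.53, with 7 reads at the summit in the OCI-Ly1 library against 71 for DDX5. DDX60 with DDX60L and DHX29 with DHX57 were unbound in all 3 libraries, at 0.952 or less. Of the 6 pairs compared, DDX19A with DDX19B was the 1 in which both genes were bound in both lines, and it was no longer so with the closest TSS only or the outermost 5′ end only.

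**Figure D4:**
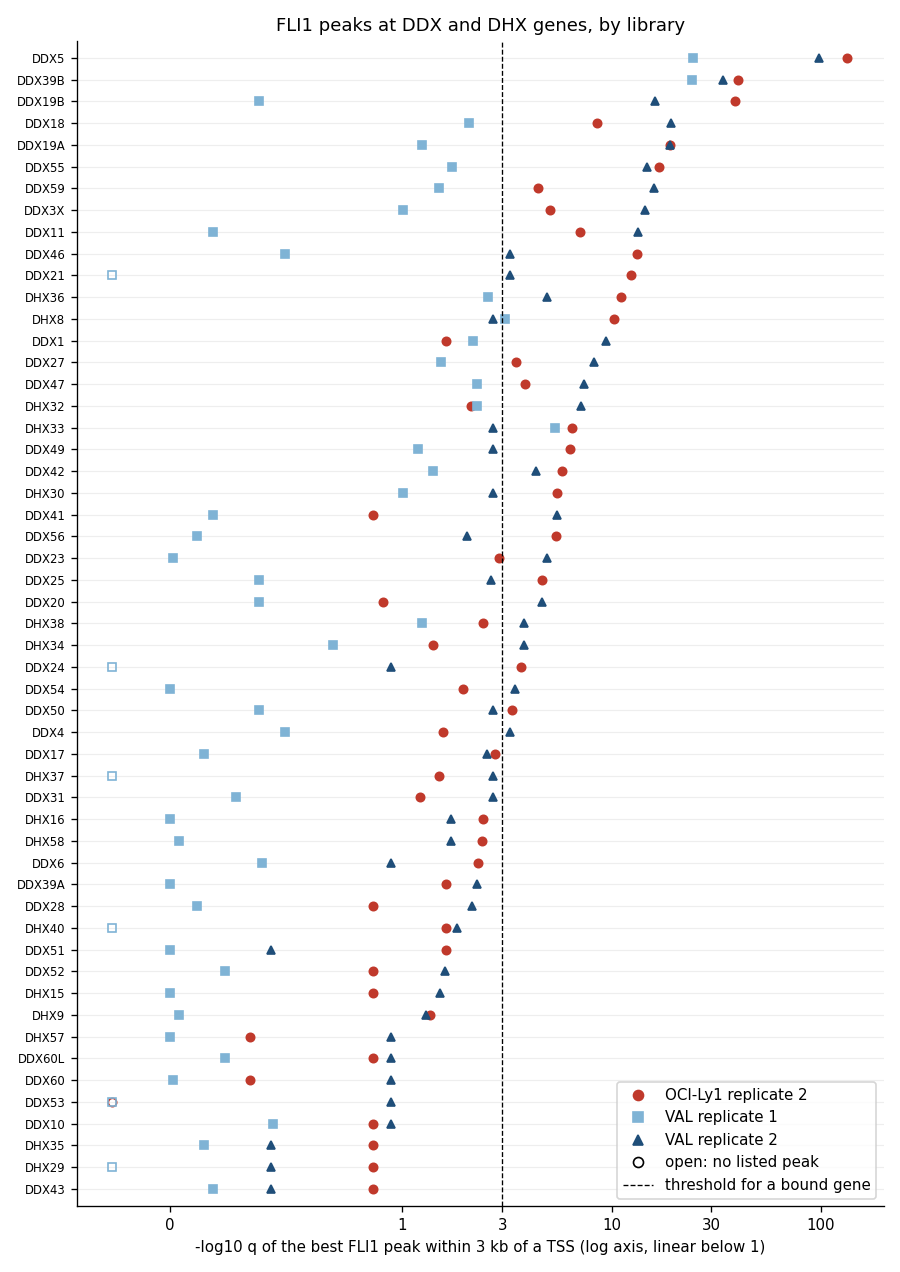
Best -log10 q within 3 kb of a TSS (x axis, log scale that is linear below 1) for 53 DDX and DHX genes (y axis, ordered by their highest value), with 1 symbol per library, open at the left where no peak was listed. DDX5 and DDX39B stand right of the dashed threshold of 3 in all 3 libraries, and most VAL replicate 1 squares stand left of it.

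Near the threshold the calls turned on few reads. In the OCI-Ly1 library the genes just inside were DDX50 at 3.35, DDX27 at 3.51 and DDX24 at 3.69, and those just outside were DDX23 at 2.89, DDX17 at 2.77 and DHX38 at 2.43. In VAL replicate 2, DDX4, DDX21 and DDX46 passed at 3.27, and DDX31, DDX49 and DDX50 fell short at 2.7. In VAL replicate 1, DHX8 passed at 3.08, and DHX36 at 2.55, DHX32 at 2.26 and DDX47 at 2.26 fell short. DDX21 in VAL replicate 2 rested on 6 reads and DDX50 on 5.

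The OCI-Ly1 library and VAL replicate 2 had the longer lists, and they shared most of their bound helicase genes, as they did of other bound genes. Of the 24 helicase genes bound in the OCI-Ly1 library, 15 (62.5%) were bound in VAL replicate 2, which is also 62.5% of the 24 bound there. Of the other genes 2508 were bound in both, which is 66.0% of the 3799 bound in the OCI-Ly1 library and a smaller share of the 4177 bound in VAL replicate 2. The summits of these 15 genes lay a median of 38 bp apart, and 10 (66.7%) lay within 50 bp, against 67.2% of the other genes. Across the 54 genes the rank correlation of -log10 q between these libraries was 0.639, given as a description over genes that share both libraries. Of the 54 helicase genes, 33 were bound in any library, 24 in the OCI-Ly1 library and 17 in both lines. Of the 20082 other genes these counts were 5493, 3799 and 2523 (27.4%, 18.9% and 12.6%). In OCI-Ly1 only, 7 helicase genes were bound, among them DDX49 at 6.33, DHX30 at 5.49 and DDX56 at 5.45. The DDX49 summit lay 14 bp from a TSS of COPE and 304 bp from its own, that of DDX25 lay 40 bp from a TSS of PUS3 and 182 bp from its own, and both calls were lost with the closest TSS only. In VAL only, 9 were bound, all in replicate 2, led by DDX1 at 9.44 and DHX32 at 7.11. Of these DDX20, DDX41, DDX54 and DHX34 lost their calls with the closest TSS only. Whether the lines differ at these genes cannot be told apart from differences between single libraries.

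The replicates of VAL shared 2 of the 4 helicase genes bound in replicate 1, DDX5 and DDX39B, against 93.6% of the other genes bound there. DHX8 and DHX33 were bound in replicate 1 and each stood at 2.7 in replicate 2, on 5 and 6 reads. For DHX8 the replicate 2 value came from another peak, with its summit at chr17:41567031 against 41561174 in replicate 1. Of the 22 genes bound in replicate 2 and not in replicate 1, 21 had a listed peak below the threshold in replicate 1, and DDX21 had none. At 16 of these 21 the summits lay within 100 bp. Over the 16 genes the reads at the summit had a median of 10.5 in replicate 1 and 12 in replicate 2. The local background set against them had a median of 2.68 reads in replicate 1 and 0.448 in replicate 2, and it was higher in replicate 1 at all 16 genes. The 16 genes were picked by passing in replicate 2 and failing in replicate 1, a choice that favours this order. Over all helicase genes with a listed peak the medians were 2.0 and 0.359, so the order is not particular to the 16. At DDX19A there were 16 reads over a background of 4.69 in replicate 1 and 18 over 0.448 in replicate 2. The part of this background in the smaller number of calls of replicate 1 was not tested.

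Summits at bound helicase genes lay close to an annotated start of the gene. The median distance from the summit to the nearest TSS of the gene was 29 bp in the OCI-Ly1 library, 28.5 bp in VAL replicate 2 and 41.5 bp in VAL replicate 1, against 71, 85 and 59 bp at other bound genes. Helicase genes had a median of 9.5 annotated TSS against 5, and with more TSS the nearest one tends to lie closer. The part of this in the shorter distances was not tested. Within 100 bp lay 20 of 24 (83.3%) in the OCI-Ly1 library and 20 of 24 in VAL replicate 2, against 57.9% and 53.2%. The exceptions over 1 kb were DDX41 and DDX54 in VAL replicate 2. The DDX41 summit lay 2900 bp from its TSS and nearest to a TSS of DOK3, an adaptor gene, and the DDX54 summit lay 1862 bp away and nearest to a Y_RNA gene. Both calls were lost with the distance set to 1 kb. Peaks past the threshold inside helicase genes and more than 3 kb from every annotated TSS numbered 3, in DDX1, DDX54 and DHX37, all in VAL replicate 2 and at 3.87 or less.

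**Figure D5:**
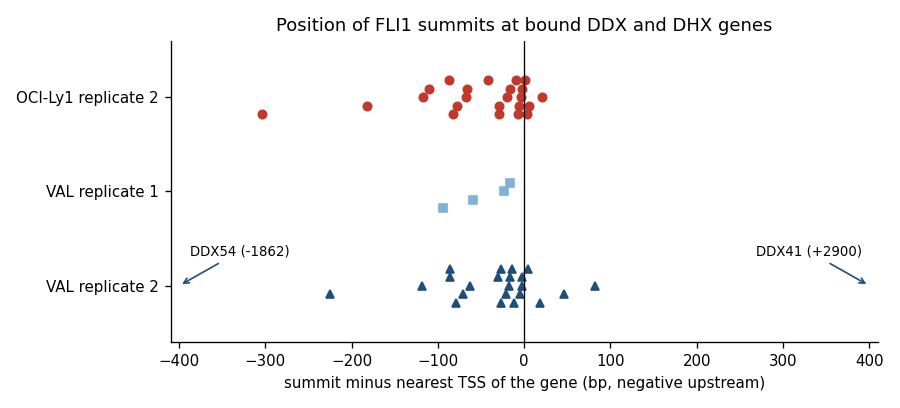
Distance from the FLI1 summit to the nearest TSS of the gene (x axis, bp, negative upstream) for each bound DDX and DHX gene in each library (y axis, points spread vertically for legibility, DDX3Y not drawn). Most summits stand within 100 bp of the TSS, and arrows mark DDX41 at +2900 and DDX54 at -1862 in VAL replicate 2.

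The motif CCGGAAG or CCGGAAA, on either strand within 50 bp of the summit, was present at 15 of 24 bound helicase genes (62.5%) in the OCI-Ly1 library, against 52.1% of other bound genes. In VAL replicate 2 it was present at 13 of 24 (54.2%), against 45.7%, and in VAL replicate 1 at 2 of 4, against 63.7%. Around the canonical TSS of all protein-coding genes, 10.2% of windows of the same 101 bp hold it. At listed peaks below the threshold it was present at 4 of 29 helicase genes in the OCI-Ly1 library, 13 of 43 in VAL replicate 1 and 3 of 29 in VAL replicate 2. The shares were 13.8%, 30.2% and 10.3%, against 5.99%, 7.52% and 5.62% of the other genes. Over all libraries 20 of the 33 bound genes (60.6%) had the motif at a summit, against 48.2% of other bound genes. At a -log10 q of at least 5 the helicase share lay near that of other bound genes in each library. There were 23 motif positions, 20 of CCGGAAG and 3 of CCGGAAA, and the median distance from motif centre to summit was 11 bp over 33 pairs of position and library. The letters CCGG read the same on both strands, so that overlapping matches are possible, and DDX27 held such a pair in CTTCCGGAAG, chr20:47835949-47835977, plus strand, shown with the match to the other strand in capitals.
DDX27: ggctgtgctcgCTTCCGGaagtggcttct
The shorter GGAA was present at every bound helicase gene in each library and at 88.5% to 93.5% of the other bound genes. A match is a description of the sequence and does not show which factor bound it.

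Helicase genes differed from other genes in their promoters. A CpG-rich promoter, with at least 50% G and C and an observed over expected CpG of at least 0.6 in the 1001 bp around the canonical TSS, was present at 46 of 54 (85.2%), against 64.3%. Among genes with such promoters, 63.0% of the helicase genes were bound in any library, against 36.0% of the others. Helicase genes also had more annotated TSS, a median of 9.5 against 5, so that a median of 18500 bp was searched against 12100. Among genes searched over more bases than the median gene, 48 helicase genes among them, 64.6% were bound against 33.8%. With only the outermost 5′ end of each gene, 30 of 54 were bound in any library, against 22.9% of the others. A gene starting on the opposite strand within 1 kb was present at 22 helicase genes (40.7%), against 29.0%. Of these 22, 54.5% were bound against 40.9% of other such genes, and of the 32 without one 65.6% were bound against 21.8%. In smaller classes the order turned in some counts and held in others. With a protein-coding neighbour of this kind, 4 of 13 helicase genes (30.8%) were bound in the OCI-Ly1 library, against 35.5% of the others, and 2 (15.4%) in both lines, against 25.9%. In any library 53.8% of the 13 were bound, against 47.6%. The shares were 38.5% against 37.8% in VAL replicate 2 and 7.69% against 6.23% in VAL replicate 1. Of the 6 helicase genes searched over at most the median number of bases, none was bound in the OCI-Ly1 library, against 14.9%, and none in both lines, against 9.86%. None was bound in VAL replicate 1, against 2.55%. In VAL replicate 2 and in any library 33.3% of the 6 were bound, against 15.8% and 20.9%. These shares are descriptions, and no difference within a class was tested.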

How the data were processed

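FLI1 ChIP-Seq peak lists of OCI-Ly1 and VAL were used as deposited by the authors, in the 10-column narrowPeak form, with a fold enrichment ratio, a -log10 p-value and a -log10 q value for each peak. The study's methods name bowtie2, SAMtools and HOMER at a false discovery rate of 0.001 on GRCh37, while the submitters' processing notes name BWA, CASAVA 1.4 and hg19. The lists have the form that MACS2 writes, which neither source names. Replicates were called separately. Read depth is not in the lists, so it is unknown.

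The best peak by -log10 q was taken for each protein-coding gene from all TSS of the GENCODE release 44 annotation on GRCh37, and a value of at least 3 was called bound. Reads and local background at a summit were solved from fold and p under a Poisson formula inferred from the values. Motifs were searched within 50 bp of summits. No test between groups was run. Functions were tested on simulated data. The genes and lists were chosen with earlier results of these data known. Genes named with values were DDX21, those bound in both lines, the leader of each library, paralogue pairs and the 3 nearest the threshold on each side. Others were added after their values were seen. Python 3 with pandas, numpy, scipy and matplotlib was used. Alternatives were the threshold, the distance, the TSS chosen, the fold, equal list lengths and the libraries left out.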

Additional observations from a re-analysis of the deposited data

How the results depend on the processing

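The counts of bound helicase genes and of those with the motif were recomputed under the alternatives, which gave 59 values, and 47 of them stayed within 1.5 times. A -log10 q of at least 5 took VAL replicate 2 from 24 to 14 and both lines from 17 to 9, and at least 2 took VAL replicate 1 from 4 to 9 and both lines to 26. Giving each peak only to its closest TSS left 1 gene (DHX8) in VAL replicate 1, against 2.22% of other genes. The 5000 highest peaks of each library gave 13 there, against 7.77%. Requiring both VAL replicates left 2 genes in both lines, against 2.73% of other genes. Without VAL replicate 2, 4 genes were bound in both lines, against 2.8% of other genes, and 24 in any library, against 19.2%. Without VAL replicate 1 these counts were 15, against 12.5%, and 33, against 27.2%. The helicase share stayed above that of the other genes in 49 of 50 recomputed counts, the exception being the closest TSS in VAL replicate 1. These counts reuse the same 3 peak lists and are not independent. Some margins were small, such as 3.7% against 2.73% with both VAL replicates required. With GGAA in place of the longer motif, all 24, 4 and 24 bound genes had a match. At a -log10 q of at least 5, 8 of 14 bound helicase genes in VAL replicate 2 had the longer motif. This stands beside 57.3% of other bound genes. In the OCI-Ly1 library it was present at 11 of 17, against 63.6%, and in VAL replicate 1 at 2 of 3, against 67.8%. The helicase shares at that threshold thus lay near those of other bound genes. No paired analysis was possible because no result comes from a test and OCI-Ly1 has 1 usable library. The weakest passing peaks rest on 6 to 8 reads, so an unbound gene is one not called in these lists.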
